A study of Homo sapiens with 5 samples.

Results

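The SMAD genes and the SKI repressors were examined for PHF8 binding in melanoma cells. The set was a list of 10 protein-coding genes, namely the receptor-regulated SMAD2, SMAD3, SMAD1, SMAD5 and SMAD9, the common partner SMAD4, the inhibitory SMAD6 and SMAD7, and the repressors SKI and SKIL, out of 20162 protein-coding genes in the annotation. The list was drawn up by role in the pathway, with earlier results of these data known. PHF8, a Jumonji-family enzyme, removes methyl groups from histones, and the study asked which genes it occupies in SKMEL-147 cells, a human melanoma line. ChIP-seq with an antibody to PHF8 gave 3 replicates, labelled A, B1 and B2, and 2 input libraries (A and B) served as background. No replicate carried a genotype change or treatment in its labels, so all comparisons were between genes and between promoters of the same cell line.

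SMAD proteins carry signals from receptors of the TGFβ family into the nucleus. SMAD2 and SMAD3 are phosphorylated by TGFβ and activin receptors, SMAD1, SMAD5 and SMAD9 by bone morphogenetic protein (BMP) receptors, and each then joins SMAD4 to act on target genes. SMAD6 and SMAD7 block the receptors in a negative feedback, and SKI and SKIL (also known as SnoN) bind SMAD complexes on DNA and recruit corepressors. The pathway is known in melanoma for its roles in invasion and in the change of cell state.

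Several stretches show what the DNA under these peaks, and at a start without a peak, looked like. All were read from the GRCh37 sequence (the build named hg19 in the study), 5′ to 3′ on the strand of the gene. In the first 6, capitals mark CG, the dinucleotide of CpG islands. The stretches were the 60 bases before the canonical transcription start site (TSS) of SMAD5 (chr5:135468474-135468533, plus strand), the gene with the highest enrichment, the 60 bases before that of SMAD9 (chr13:37494376-37494435, minus strand), the gene with the lowest, the 60 bases before an internal TSS of SMAD1 that had no peak (chr4:146467169-146467228, plus strand), and 60 bases around the strongest promoter summit in replicate A of SMAD2 (chr18:45457785-45457844, minus strand), SKI (chr1:2158926-2158985, plus strand) and SMAD7 (chr18:46478221-46478280, minus strand).
SMAD5 before the canonical TSS: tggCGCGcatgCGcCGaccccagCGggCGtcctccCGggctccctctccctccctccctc
SMAD9 before the canonical TSS: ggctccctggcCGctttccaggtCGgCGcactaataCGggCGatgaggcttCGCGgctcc
SMAD1 before an internal TSS: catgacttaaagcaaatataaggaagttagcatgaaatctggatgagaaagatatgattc
SMAD2 at the summit: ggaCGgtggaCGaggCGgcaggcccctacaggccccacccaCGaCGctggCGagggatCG
SKI at the summit: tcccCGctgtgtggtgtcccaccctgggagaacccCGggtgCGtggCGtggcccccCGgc
SMAD7 at the summit: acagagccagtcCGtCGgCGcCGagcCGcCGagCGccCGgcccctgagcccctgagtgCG
The 5 stretches under or beside a peak held 5 to 9 CG, with 7 each for SMAD5 and SMAD9, and the internal start of SMAD1 held 0. That start was an extreme case. Its ratio of observed to expected CG within 250 bp was 0, the lowest among promoters of the set without a peak, whose median was 0.245. In the next pair, capitals mark GTCTAGAC, the palindrome to which SMAD proteins bind, before the canonical TSS of SMAD6 (chr15:66994514-66994573, plus strand) and upstream of SMAD7 (chr18:46478562-46478621, minus strand).
SMAD6 before the canonical TSS: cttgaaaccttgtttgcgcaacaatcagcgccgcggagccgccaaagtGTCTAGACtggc
SMAD7 upstream: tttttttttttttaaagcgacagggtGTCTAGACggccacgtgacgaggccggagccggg

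The deposited lists held 21506 peaks in A, 20882 in B1 and 20120 in B2. For each peak they gave the fold enrichment, a linear ratio of ChIP over local background at the summit, from which the number of fragments at the summit was recovered (a median of 54, 39 and 40 fragments per peak). A gene or promoter was called bound when a peak overlapped the 1 kb on either side of a TSS in all 3 replicates. All 10 genes were bound, against 60.2% of all protein-coding genes. The set has 105 annotated TSSs for 114 transcripts, and chaining the TSSs of a gene that lie at most 1 kb apart gave 55 promoters. Of these, 11 were bound, against 22.2% of the promoters of all protein-coding genes. They were the 10 promoters with the canonical TSS (58.2% of such promoters were bound over all genes) and 1 further promoter of SMAD3.

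Fold enrichment was on a higher scale in A than in B1 and B2. Genes were therefore ranked within a replicate, as the percentile of the strongest promoter peak among the 12139 bound protein-coding genes. The median mean percentile of the set was 20.6, with medians of 27.8, 14.5 and 23.0 in A, B1 and B2, while that of all bound protein-coding genes was 50.8. So the genes were all bound, and most of them lay in the lower part of the range of bound genes. Of the 10, only SMAD5 and SMAD4 had a mean percentile above 50.

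**Figure D1:**
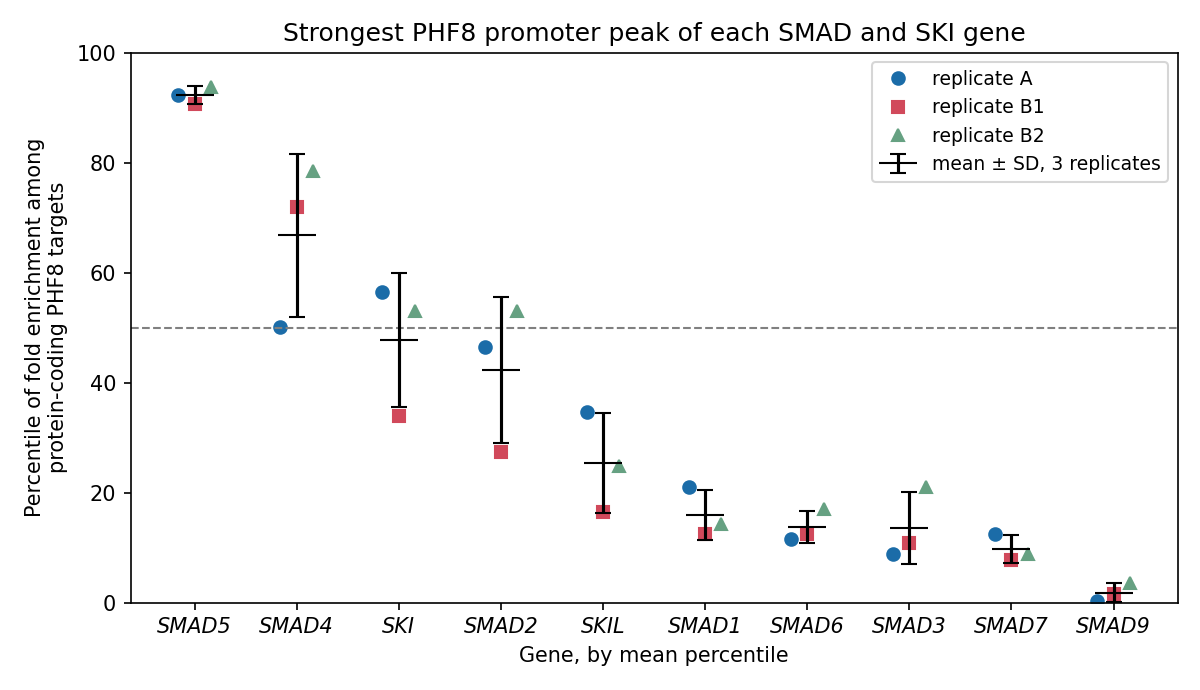
Percentile of the fold enrichment of the strongest PHF8 promoter peak of each gene among bound protein-coding genes of the same replicate (vertical axis) for the 10 genes in order of their mean (horizontal axis), with points for replicates A, B1 and B2 and a bar for the mean ± SD (n = 3). SMAD5 stood at 92.3 and SMAD9 at 1.83, and the points of neighbouring genes from SMAD1 to SMAD7 overlapped.

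Among the receptor-regulated SMADs of the TGFβ branch, SMAD2 (ENSG00000175387, chr18:45335328-45457517, minus strand) had 2 promoter peaks in each replicate, an outer and an inner one. The outer peak lay before all annotated starts, with summits 785, 759 and 787 bp upstream of the canonical TSS and fold enrichments of 31.9, 10.4 and 19.1 in A, B1 and B2. The inner peak, over the canonical TSS, had fold enrichments of 23.8, 13.8 and 11.7. The outer peak was thus the higher in A and B2 and the inner in B1. The strongest peak gave a percentile of 42.3 ± 13.3 (SD, n = 3), from 27.4 in B1 to 53.1 in B2.

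SMAD3 (ENSG00000166949, chr15:67356101-67487511, plus strand), the other TGFβ-activated SMAD, had lower peaks. Its strongest promoter peaks had fold enrichments of 14.0, 9.01 and 11.6, from 36, 31 and 38 fragments, and a percentile of 13.6 ± 6.55. In A 1 peak of 1771 bp ran from 451 bp before the canonical TSS to 1319 bp after it. B1 and B2 had 3 separate peaks each over this stretch and just beyond it. The lists therefore cut the same domain differently, and a long non-coding gene (ENSG00000259347) that also starts here shares the peak, so that binding at its start and at that of SMAD3 cannot be told apart. SMAD2 was above SMAD3 in all 3 replicates, by 37.7, 16.5 and 32.0 percentile points.

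The BMP-branch SMADs spanned nearly the whole range. SMAD5 (ENSG00000113658, chr5:135468534-135524435, plus strand) had fold enrichments of 54.8, 32.1 and 33.2, from 164, 96 and 103 fragments, and a percentile of 92.3 ± 1.6. Its 3 peaks were close to identical in place, each about 1 kb wide, with summits 169, 152 and 175 bp after the canonical TSS in the 5′ untranslated region. SMAD1 (ENSG00000170365, chr4:146402346-146480328, plus strand) had fold enrichments of 21.4, 9.55 and 9.82 and a percentile of 15.9 ± 4.48, with summits 107, 75 and 47 bp after the canonical TSS.

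SMAD9 (ENSG00000120693, chr13:37418968-37495024, minus strand), which is phosphorylated by BMP receptors like SMAD1 and SMAD5, had the weakest peaks of the set. The fold enrichments were 5.06, 5.12 and 5.91 and the percentile 1.83 ± 1.67. They rested on 12, 14 and 17 fragments in A, B1 and B2, with 95% exact Poisson intervals of 6.20 to 21.0, 7.65 to 23.5 and 9.90 to 27.2. The −log10 q-values were 5.37, 5.98 and 8.34, so each peak passed the cutoff of its list by itself. These intervals cover counting error only. The summits lay 336, 97 and 197 bp after the canonical TSS, a wider spread than at SMAD5.

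SMAD4 (ENSG00000141646, chr18:48554898-48611415, plus strand), the partner shared by both branches, had fold enrichments of 33.4, 24.9 and 25.6 and a percentile of 66.8 ± 14.9. Replicate A was the low one by percentile, at 50.1 against 71.9 and 78.5. In A the summit held 122 fragments over a local background of 2.68, above the commonest background of that list, 1.57. Ranked by fragments in place of fold enrichment, SMAD4 stood at 65.6 ± 5.33. The peak covered the canonical TSS from 492 to 435 bp before it to between 528 and 733 bp after it, and it is shared with a non-coding gene (ENSG00000289868) that starts there. The most upstream TSS of SMAD4, the start of a coding transcript 1685 bp before the canonical TSS, had no peak.

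The inhibitory SMADs had low, split peaks that surrounded the canonical start or lay before it. SMAD6 (ENSG00000137834, chr15:66994574-67075187, plus strand) had fold enrichments of 16.0, 9.55 and 10.5 at its strongest promoter peak and a percentile of 13.7 ± 2.92. A region further upstream, chr15:66992969-66993410, had a peak in all 3 replicates with fold enrichments of 20.6, 9.54 and 11.2, and its summits lay 1372, 1361 and 1364 bp before the canonical TSS, outside the 1 kb window. In A and B2 this outer peak was higher than the promoter peak, and in B1 they were level. B1 and B2 had a further summit 774 and 786 bp before the TSS, which fell inside the single long promoter peak of A.

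At SMAD7 (ENSG00000101665, chr18:46446223-46477335, minus strand), which shuts off TGFβ receptors, the strongest promoter peak did not lie at the annotated start at all. Its summits were 916, 901 and 916 bp before the canonical TSS, with fold enrichments of 16.4, 7.84 and 7.89 and a percentile of 9.70 ± 2.51. A second upstream region, chr18:46478578-46479409, had a peak in all 3 replicates, with summits 1626, 1633 and 1682 bp before the TSS and fold enrichments of 14.8, 9.21 and 9.86. Near the start itself, weak peaks were listed in A (3.90) and B2 (4.93) and none in B1. With the window narrowed to 500 bp, SMAD7 was still called bound, through such weak peaks at the canonical or an internal start, and its percentile was 0.594.

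The palindrome printed above lay between neighbouring summits in both inhibitory genes. At SMAD7 it stood 1260 bp before the canonical TSS, at chr18:46478588-46478595, 340 to 355 bp from the summit on the side of the gene and 370 to 426 bp from the outer one. At SMAD6 it stood 12 bp before the canonical TSS, at chr15:66994562-66994569, 163 to 270 bp from the next summit inside the gene. The next summit upstream was farther off, at 1363, 765 and 777 bp in A, B1 and B2. In B1 and B2 the palindrome was inside no peak at either gene. In A the edge of the outer SMAD7 peak and the long SMAD6 peak covered it. GTCTAGAC was found within 1 kb of the canonical TSS in 1 of 10 members (SMAD6) and in 1.09% of all such promoters (0.951% of bound ones). Within 2 kb, a window chosen after the SMAD7 peaks had been seen, it was found in SMAD6 and SMAD7 and in 2.22% of all promoters. A match is only a description of the letters, and binding of SMAD proteins was not measured.

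**Figure D2:**
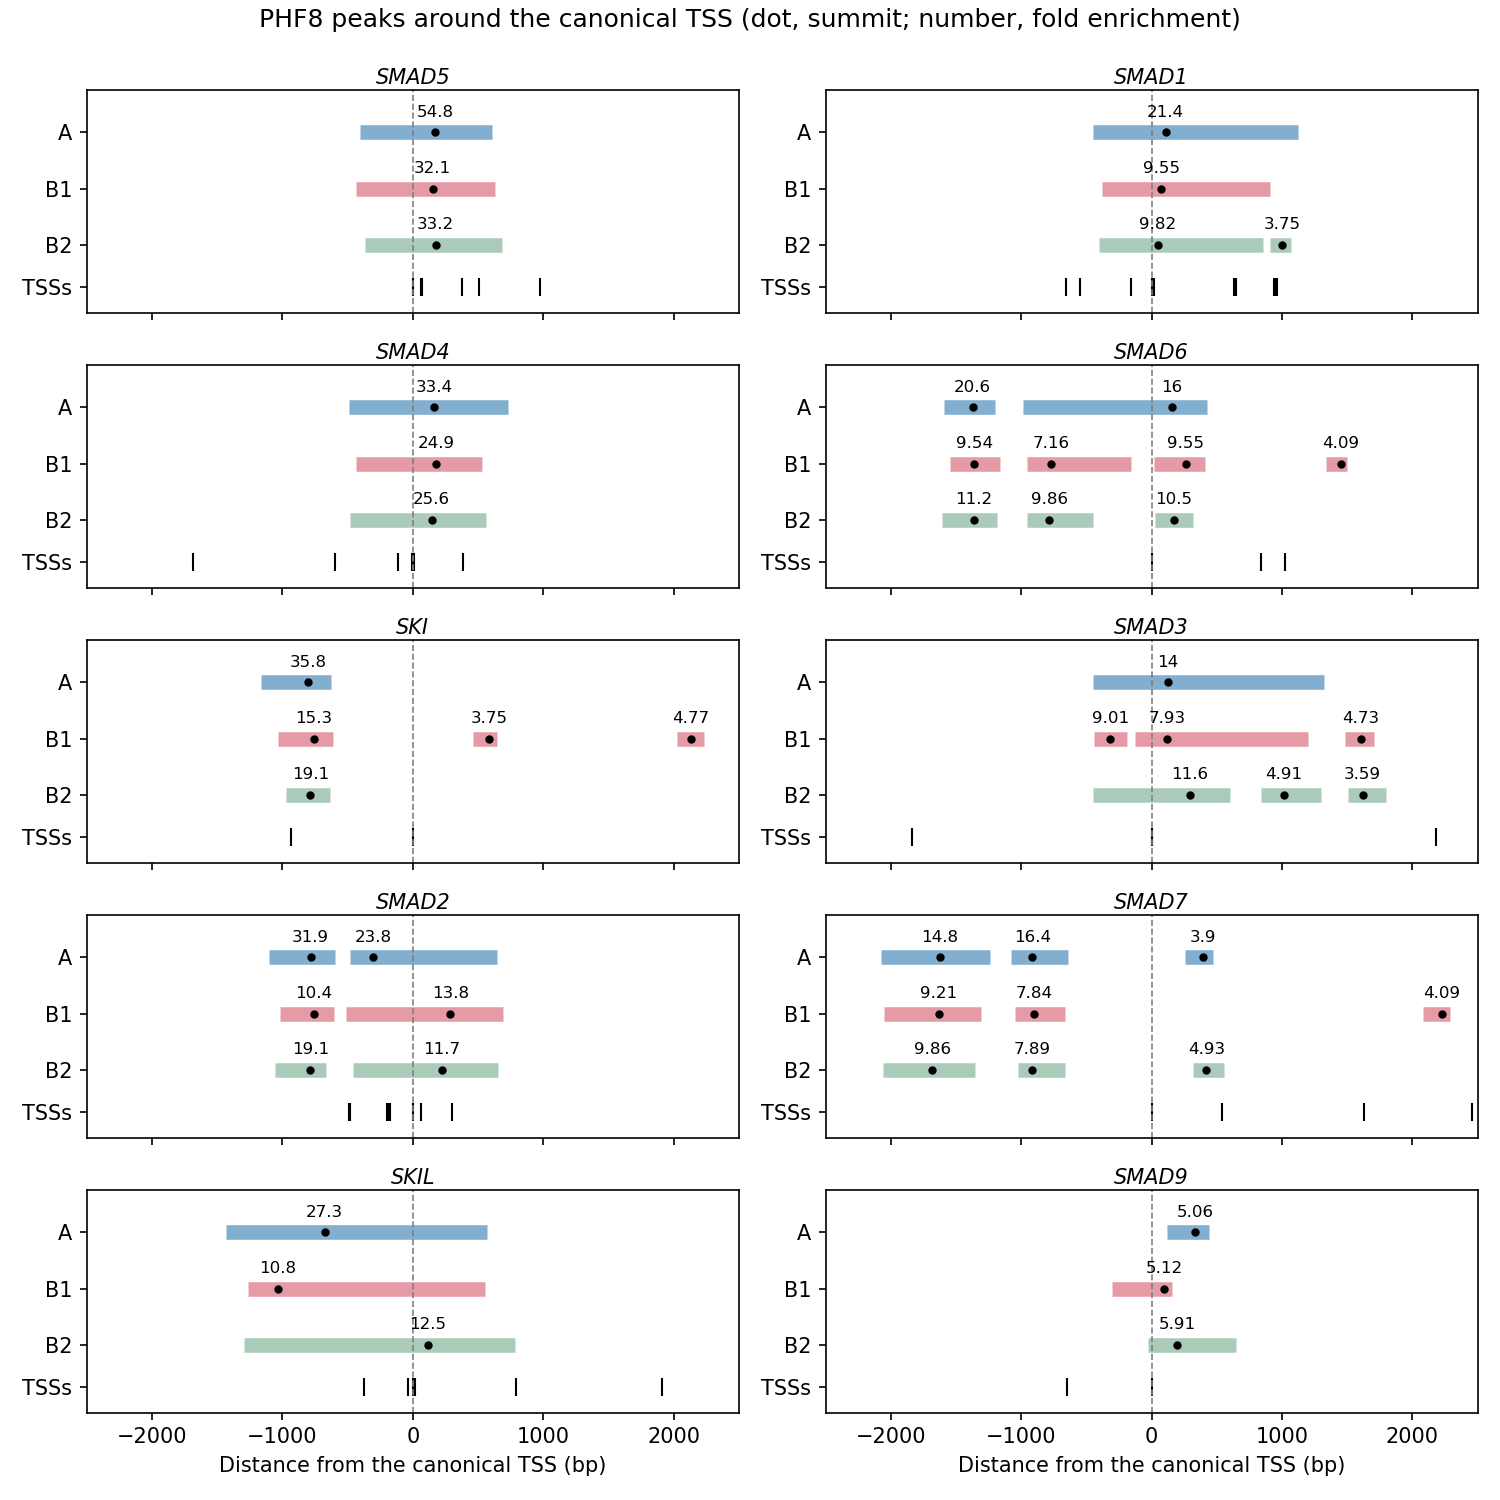
PHF8 peaks of replicates A, B1 and B2 (colored bars, with a dot at the summit and its fold enrichment above it) within 2500 bp of the canonical TSS of each gene (horizontal axis, bp, negative upstream on the strand of the gene), with ticks for the annotated TSSs. SMAD5 and SMAD4 had 1 peak per replicate over the TSS, whereas the SKI and SMAD7 summits lay upstream, at -802 and -916 bp in A.

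The repressor genes took intermediate places. SKI (ENSG00000157933, chr1:2158827-2241652, plus strand) had fold enrichments of 35.8, 15.3 and 19.1 and a percentile of 47.8 ± 12.2. The summits lay 802, 759 and 786 bp before the canonical TSS but 129, 172 and 145 bp after the most upstream TSS of the gene, which belongs to a transcript with no annotated coding sequence. Over the canonical coding start no peak was listed in A or B2, although its sequence had the highest GC content of the set (89.8%). B1 had a weak peak 587 bp after it, with a fold enrichment of 3.75. An intronic region of SKI, chr1:2222436-2222705, had a peak in all 3 replicates about 62.8 kb after the canonical TSS, with fold enrichments of 12.1, 7.50 and 5.26. It lay about 12.5 kb from the nearest annotated SKI start and rested on 30, 21 and 15 fragments.

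SKIL (ENSG00000136603, chr3:170075130-170114623, plus strand) had a broad peak in each replicate, 2000, 1820 and 2080 bp wide, running from over 1.2 kb before the canonical TSS to over 0.5 kb after it. The fold enrichments were 27.3, 10.8 and 12.5 and the percentile 25.4 ± 9.11. The summit moved within this domain, from 677 and 1036 bp before the TSS in A and B1 to 116 bp after it in B2. Local background was high at SKIL, 5.11 fragments in B1 and 3.55 in B2, and ranked by fragments the gene stood at 44.3 ± 6.0. Its fold enrichment therefore placed it lower than its fragment count did.

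In the order of mean percentiles, SMAD5 came first, followed by SMAD4, SKI, SMAD2, SKIL, SMAD1, SMAD6, SMAD3, SMAD7 and SMAD9. The higher gene of a neighbouring pair was higher in 3 of 3 replicates, by more than the SD of the difference, for SMAD5 over SMAD4 (25.5 ± 14.7 points), SMAD2 over SKIL (17.0 ± 9.73), SKIL over SMAD1 (9.40 ± 4.91) and SMAD7 over SMAD9 (7.87 ± 3.84). The direction of 2 of these pairs turned round under other settings. Ranked by fragments, SKIL (44.3) was above SMAD2 (33.3) and SKI (37.7), and with the 500 bp window SMAD7 (0.594) was below SMAD9 (1.79). SMAD4 exceeded SKI by 19.0 ± 22.9 points and in 2 of 3 replicates. SKI exceeded SMAD2 by 5.46 ± 5.03 points, higher in A and B1 and tied in B2. SMAD1 and SMAD6, SMAD6 and SMAD3, and SMAD3 and SMAD7 differed by 0.119 to 3.89 points, less than the SD of the difference. By role, the median percentile was 28.0 for the TGFβ-branch SMADs (2 genes), 15.9 for the BMP branch (3 genes), 11.7 for the inhibitory SMADs (2 genes) and 36.6 for the repressors (2 genes). The BMP branch alone ran from 1.83 to 92.3, across the genes of every other role. The TGFβ branch (13.6 to 42.3) overlapped the inhibitory SMADs (9.70 to 13.7) and the repressors (25.4 to 47.8). The inhibitory SMADs lay below both repressors, and SMAD4 (66.8) lay above all genes outside the BMP branch. With 1 to 3 genes per role, the roles were not tested against each other.

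Peak width ranked the genes differently from height. By the widest promoter peak, SKIL stood at a percentile of 99.2 ± 0.461 among bound protein-coding genes, SMAD1 at 92.0 ± 2.65 and SMAD3 at 89.7 ± 9.36, although all were under 26 by fold enrichment. SKI and SMAD7 were narrow, at 16.0 ± 6.28 and 12.4 ± 0.506. SKI, at mid range by height, thus had a compact peak of 541, 423 and 337 bp, in contrast to the domain at SKIL. For SMAD6 the width percentile was 58.1 ± 31.4, as its promoter peak was 1 piece in A and several in B1 and B2.

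**Figure D3:**
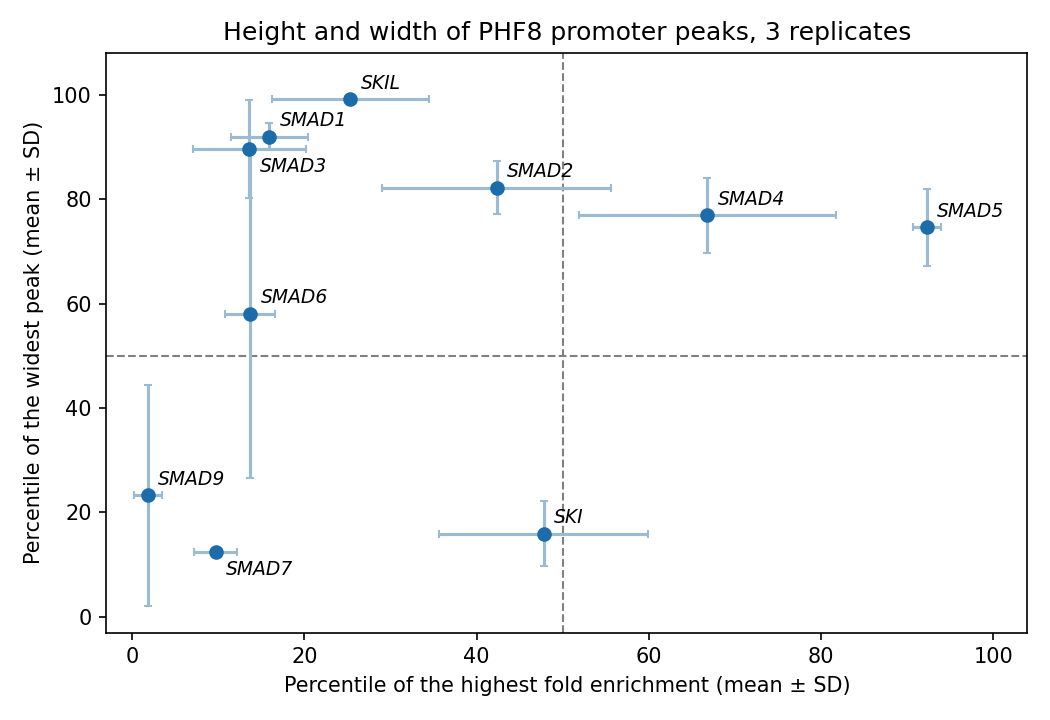
Percentile of the highest promoter fold enrichment (horizontal axis) against that of the widest promoter peak (vertical axis) for each gene, both among bound protein-coding genes, as means with SD bars over 3 replicates. SKIL, SMAD1 and SMAD3 lie at the upper left (low and wide), SMAD5 at the right (high, width percentile 74.6) and SKI and SMAD7 at the bottom (narrow).

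With all annotated transcripts counted, most alternative promoters of the set were not bound, as over all protein-coding genes. Of the 10 most upstream promoters 8 were bound (54.3% over all protein-coding genes), and the exceptions were those of SMAD3 and SMAD4. Of the 45 further promoters 3 were bound, close to the share over all genes (6.88%). SMAD4 had 10 of 11 promoters unbound and SMAD3 11 of 13, the farthest of them 122.9 kb from the first start of SMAD3. Annotated coding transcripts numbered 43 at the bound promoters and 21 at the others, and 11 of the 21 belonged to SMAD3. Whether these starts are used in SKMEL-147 cells was not measured here. Of the 44 promoters not bound in all replicates 43 had no peak in any replicate, and the remaining promoter, an internal start of SMAD7, had a weak peak in B1 alone (4.09, from 11 fragments). The share of all protein-coding promoters without a peak in any replicate was not counted. These numbers depend on the transcripts used. With only those that the annotation tags as basic, the set had 20 promoters, and 11 were bound. The share over all protein-coding genes was not counted under that setting.

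The bound promoters of the set were CpG-rich with 1 exception, and those without a peak were not. Within 250 bp of the TSS, 10 of the 11 bound promoters reached 50% GC and a ratio of observed to expected CpG of 0.6, the usual limits of a CpG island. None of the 43 promoters without a peak did, and the SMAD7 promoter with a peak in B1 alone did (GC 56.7%, ratio 0.628). The median ratio was 0.927 at bound promoters and 0.245 at those without a peak, whose highest value was 0.564. The exception among the bound was the third promoter of SMAD3, with a ratio of 0.245. In A it was called bound only through the 1771 bp peak over the CpG-rich canonical TSS of SMAD3. With a 500 bp window it was not bound. Of the promoters of the set not bound in all replicates, 1 of 44 (2.27%) thus met both limits. Over all protein-coding genes, 86.8% of bound promoters and 8.39% of those not bound in all replicates did. The pattern is therefore not particular to the SMAD and SKI genes. The 10 bound promoters with the canonical TSS were all CpG-rich, and over all protein-coding genes 74.7% of CpG-rich promoters were bound. At the bound promoters of SMAD5 and SMAD9, the genes with the highest and lowest enrichment, the ratio was 1.00 and 0.979 and the GC content 73.1% and 79.8%.

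**Figure D4:**
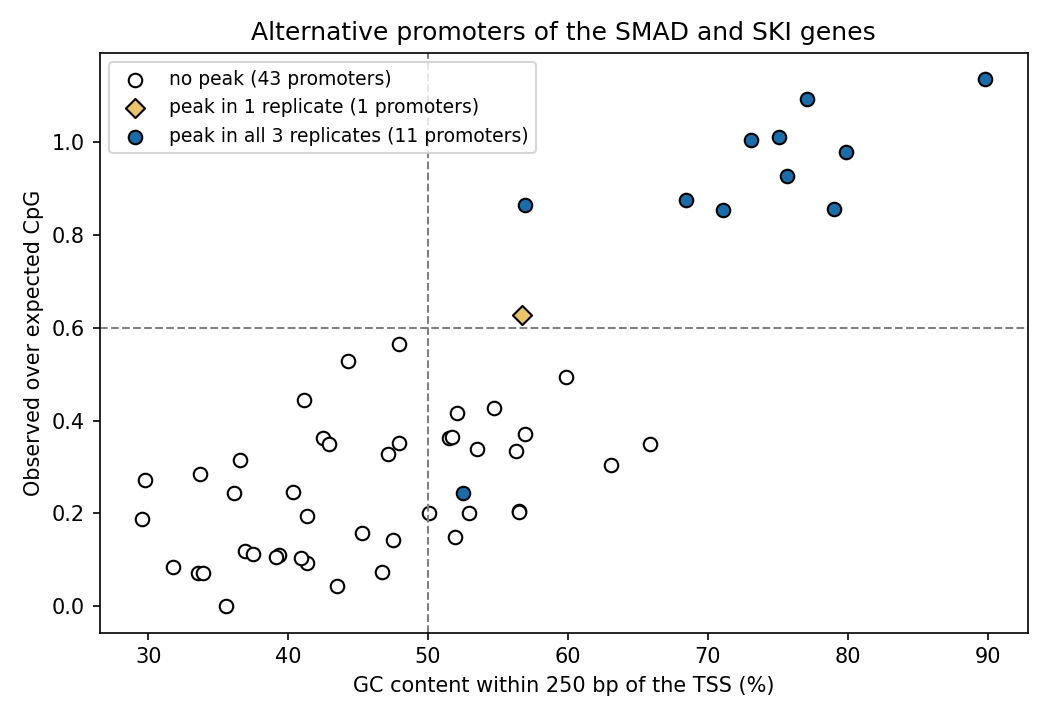
GC content (horizontal axis, %) and observed over expected CpG ratio (vertical axis) within 250 bp of the TSS for the 55 promoters of the 10 genes, by the number of replicates with a peak, with dashed lines at 50% and 0.6. All but 1 of the 11 bound promoters lie in the upper right field, and all 43 promoters without a peak lie outside it.

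The windows of 1 kb on either side of the canonical TSS were searched on both strands for short motifs, and matches of different motifs may share bases. GGCGCC, a GC-rich SMAD element, was present in 10 of 10 genes (61.4% of all promoters and 76.0% of bound ones) and GGGCGG, the GC box, in 10 of 10 (81.8% and 96.6%). CCAAT was present in 8 of 10 (87.1% and 86.6%), with SMAD7 and SKI the genes without it. TGACTCA, the AP-1 element, was present in 1 of 10 (20.2% and 18.1%), in SMAD1. The number of GC boxes ran from 2 in SMAD7 and 3 in SMAD5 to 24 in SKIL and 25 in SKI.

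The summits of promoter peaks, taken against the nearest TSS of the same gene, lay downstream in 7 of 12 in A, 9 of 17 in B1 and 10 of 16 in B2. This was 58.3%, 52.9% and 62.5%, against 58.1%, 57.8% and 58.1% for all bound protein-coding genes. Of the 45 summits, 22 were in untranslated regions, 10 upstream of the gene, 9 in introns, 2 in non-coding exons and 2 in coding exons. The shares were not tested against each other, and the places of the summits were not counted over other genes.

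SMAD3 was the only gene with a second bound promoter, a CpG-poor coding start 2183 bp after the canonical one. The log2 ratio of the canonical over the second promoter was 0, 0.18 and 1.24 in A, B1 and B2, and its mean was 0.47 ± 0.67 (SD, n = 3). The value of 0 in A arose because the same 1771 bp peak met both windows. With that value at 0, the exact 2-sided permutation test that flips signs over the replicates can give no p below 0.5, and it gave p = 0.5, so it does not bear on the difference. The value of the second promoter in B1, 7.93, was that of a peak with its summit 117 bp after the canonical TSS. The other peaks that met the window of the second start in B1 and B2 had fold enrichments from 3.59 to 4.91. With a 500 bp window the second promoter was not bound.

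A wider list of 24 SMAD partners and regulators, taken from general knowledge of the pathway, was read in the same way. Of these 22 were bound (91.7%, against 60.2% of all protein-coding genes), and FOXH1, a SMAD partner in early development, and LDLRAD4, an inhibitor of SMAD phosphorylation, were not. Their mean percentiles had a median of 53.5, close to that of all bound genes, and 12 of 22 were above 50, against 2 of 10 for the SMAD and SKI genes. The highest was NCOR1, a corepressor, at 84.1 ± 4.73, followed by SMURF2, a ubiquitin ligase for SMADs and receptors, at 76.6 ± 9.72. The lowest was HIPK2, a kinase that works with corepressors, at 10.8 ± 7.02. The ubiquitin ligase SMURF1, at 36.7 ± 11.1, lay below SMURF2 in all 3 replicates. BAMBI, a decoy receptor, differed most between replicates, at 65.7 in A against 14.3 and 9.22 in B1 and B2. The lists were not tested against each other.

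**Figure D5:**
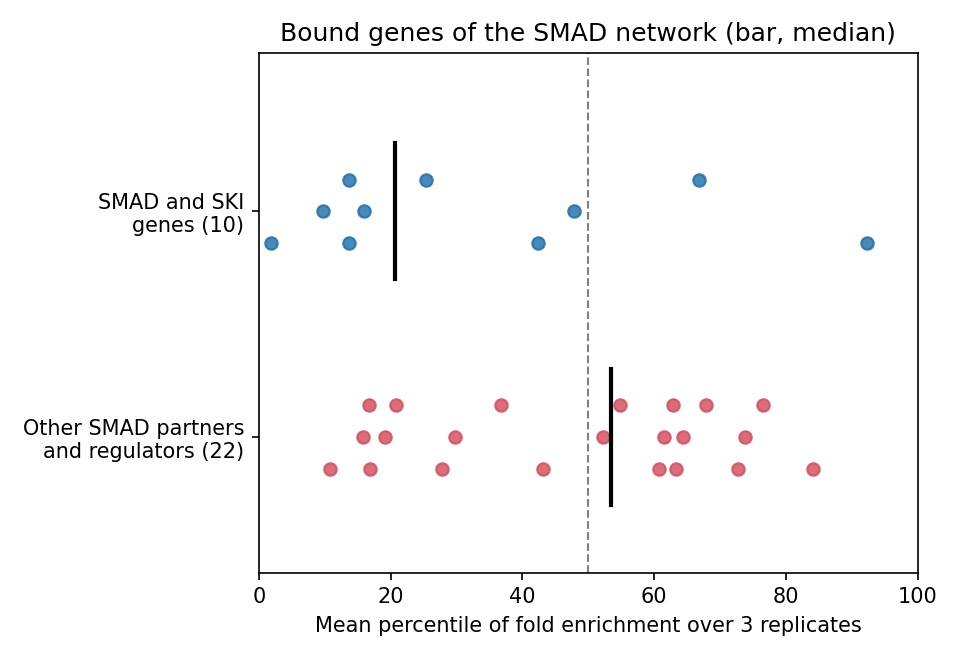
Mean percentile of fold enrichment over 3 replicates (horizontal axis) for the 10 SMAD and SKI genes (upper row) and for the 22 bound genes of the list of SMAD partners and regulators (lower row), with a bar at the median. The median was 20.6 in the upper and 53.5 in the lower row, and the ranges overlapped.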

How the data were processed

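SKMEL-147 chromatin was immunoprecipitated for PHF8 in 3 replicates and sequenced beside 2 inputs. The authors mapped the reads to hg19 (Bowtie2, defaults) and ran MACS in narrow mode on each replicate against input, without pooling, per the study's methods. The study's fold enrichment cutoff was 1.5, and its q cutoff, printed with the opposite sign, was read as below 0.05, which all listed peaks passed. Read totals and duplicate handling are not given in the sources used here. The deposited lists hold, per peak, the fold enrichment (a linear ratio), the p-value and q-value as −log10, a score that the authors' caller derives from the q-value (not used) and the summit. Nothing in the labels says whether replicates were separate cultures, and B1, B2 and 1 input share a letter, so the spread may be partly technical.

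TSSs came from GENCODE release 44 on GRCh37 (hg19 under another name; all peaks fell within its chromosomes). The canonical TSS is the start of the transcript that the annotation marks as canonical. A promoter was a chain of TSSs of 1 gene at most 1 kb apart, and bound meant a peak overlapping the 1 kb around a TSS in all 3 replicates. Summit fragments were recovered as the whole number n for which (n + 1)/(background + 1) equals the deposited fold enrichment and the Poisson tail equals the deposited p-value. A whole number was found for 100.0% of peaks within 0.001 on the −log10 scale. The scripts were tested on simulated data (Python 3.11.15, pandas 2.3.3, scipy 1.17.1, pysam 0.24.0). No comparison between conditions was possible. All 10 genes are named. The members, lists and motifs were chosen with earlier results of these data known, so they give no independent support. Alternatives were stricter peak cutoffs, other windows and TSS sets, other chaining, fragments in place of fold enrichment, and leaving out each replicate. A wider motif window was added after seeing the data.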

Additional observations from a re-analysis of the deposited data

How the results depend on the processing

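The number of bound genes stayed within 1.5 times of 10 under 11 of 12 alternatives, and that of bound promoters within 1.5 times of 11 under 13 of 14. The exception was a fold enrichment above 10 in every replicate, which left 5 genes and 5 promoters (SMAD2, SMAD5, SMAD4, SKI and SKIL) and gave a median percentile of 36.8. Several alternatives only loosen the call and could not lower either count, so they do not bear on its stability. These were the 2 kb window, a peak in at least 2 replicates, and leaving out a replicate. The gene count could not exceed 10, the size of the set. The total of promoters ran from 10 with 1 TSS per gene to 63 with chaining at 500 bp. With 1 TSS per gene, 8 genes were bound, as the most upstream starts of SMAD3 and SMAD4 have no peak. The shares of all protein-coding genes bound under these settings were not counted. It was therefore not tested whether such losses are particular to the set. The share of summits downstream of the TSS, a mean of 57.9%, moved to 50.2% with the 2 kb window and to 67.6% with 1 TSS per gene. Leaving out each replicate gave 10 bound genes and 11 bound promoters. These counts could not fall, as bound then meant a peak in each replicate kept. The median percentile was then 18.4 to 24.3, the downstream share 55.6% to 60.4% and the SMAD3 log2 ratio 0.09 to 0.71. The SMAD3 ratio rests on B2, since without it the value was 0.09. With the 2 kb window it was 0.0, and with the 500 bp window it could not be computed. Over the single genes, 126 of 133 percentiles moved by less than the SD of the replicates. Leaving out a replicate could hardly move a percentile by more, since that SD comes from the same 3 values. The 7 that moved by more were of SMAD5, SKIL and SMAD7 (2 each) and SMAD6 (1). A setting under which a gene was no longer bound gave no percentile for it and is not among the 133. No pairing between samples was possible because the peaks come from 1 group of 3 replicates and the inputs have no peak lists. Differences between genes or promoters were taken within each replicate.

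Depth limits the weakest calls most, SMAD9 with 12 to 17 fragments and the SKI intron with 15 to 30. Fold enrichment depends on the local background, which lowered SKIL against its fragment count. A peak shared by overlapping genes cannot be assigned to either.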
